A study of Mus musculus with 14 samples.

Results

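The RNA of 10 transcription factors that set up and maintain the identity of heart muscle cells was followed in hearts that had lost Fam210a from cardiomyocytes. The factors are the MADS-box proteins Srf, Mef2a and Mef2c, the GATA proteins Gata4 and Gata6, the T-box proteins Tbx5 and Tbx20, the homeobox proteins Nkx2-5 and Irx4, and the basic helix-loop-helix protein Hand2. They were taken by name, as 10 of the 53735 gene symbols listed in each count table, and all 10 had enough reads to be tested in every comparison. Knockout mice (cKO) carried Fam210a fl/fl and the αMHC-MCM/+ transgene, and control mice carried αMHC-MCM/+ without the floxed alleles. All animals were male, of the C57BL/6 strain, and had received tamoxifen about 5 weeks (4 cKO and 4 control hearts) or about 10 weeks (3 cKO and 3 control hearts) before. The series' text describes cardiac function as normal at the first time and strongly impaired at the second.

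The transgene is a Cre recombinase that tamoxifen switches on and that the Myh6 promoter drives in cardiomyocytes, so other heart cells keep Fam210a. RNA came from hearts and not from sorted cells. A lower reading of a cardiomyocyte transcript can therefore come from fewer cardiomyocytes or from less RNA per cell, and these cannot be told apart. Whether every library stands for its own animal is not said in the labels, and a p-value here speaks of the spread among these libraries.

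As background, these factors bind the promoters and enhancers of sarcomere, ion channel and natriuretic peptide genes, often side by side and in physical contact with one another. Several of them also act on each other's genes, and most are needed first to form the heart and later to keep adult cardiomyocytes working. SRF binds a short sequence called the CArG box and takes its instructions from partners, among them myocardin and the myocardin-related factors.

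The libraries held 15657298 to 19466469 counts at 5 weeks and 29989076 to 35750964 at 10 weeks. Fam210a itself was measured at 158, 135, 140 and 150 CPM (read counts scaled to a common library size) in the 5-week cKO hearts and 165 to 178 CPM in their controls. At 10 weeks it was measured at 65.1, 70.8 and 64.6 CPM in cKO hearts and 131, 120 and 134 CPM in controls. Every cKO heart lay below every control at both times, and the change passed the test at 10 weeks (log2 fold change -0.94, SE 0.11, edgeR adjusted p = 6.5e-05) but not at 5 weeks (log2 fold change -0.22, SE 0.06, edgeR adjusted p = 0.17). Replicate 4 of the 5-week cKO group is a knockout by its title and has the control genotype in another label field. It was kept as a knockout, and the results with it left out or counted as a control are given where they matter. The defining cardiomyocyte markers were abundant in all 14 hearts, with 56855 to 87856 CPM summed over 11 genes. Myl7, the atrial myosin light chain, exceeded 50 CPM in 3 hearts, described below.

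At 5 weeks none of the 10 factors passed the test. At 10 weeks 3 rose, namely Srf, Mef2a and Gata4, and 4 fell, namely Irx4, Mef2c, Tbx20 and Gata6. Nkx2-5, Tbx5 and Hand2 did not pass the test at either time. The changes at 10 weeks ran from 2.05 times the control level for Srf to 0.217 times for Irx4, and the changes within the MEF2 pair and within the GATA pair had opposite signs. A gene was called at an edgeR adjusted p under 0.05, adjusted over all tested genes. Among all genes, 0.613% of 13529 were called at 5 weeks and 65% of 14942 at 10 weeks, so the 7 of 10 factors called at 10 weeks are a share near the background. The groups did not overlap for the same 7 factors at 10 weeks, as for 69.8% of all tested genes. Of all tested genes, 31.8% rose and 33.2% fell. The median log2 fold change of the 10 factors was -0.01 at 5 weeks, against 0.00 over all tested genes, and 0.09 at 10 weeks, against -0.02. Without regard to sign, the median change at 10 weeks was 0.65 for the factors and 0.71 for all tested genes.

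**Figure D1:**
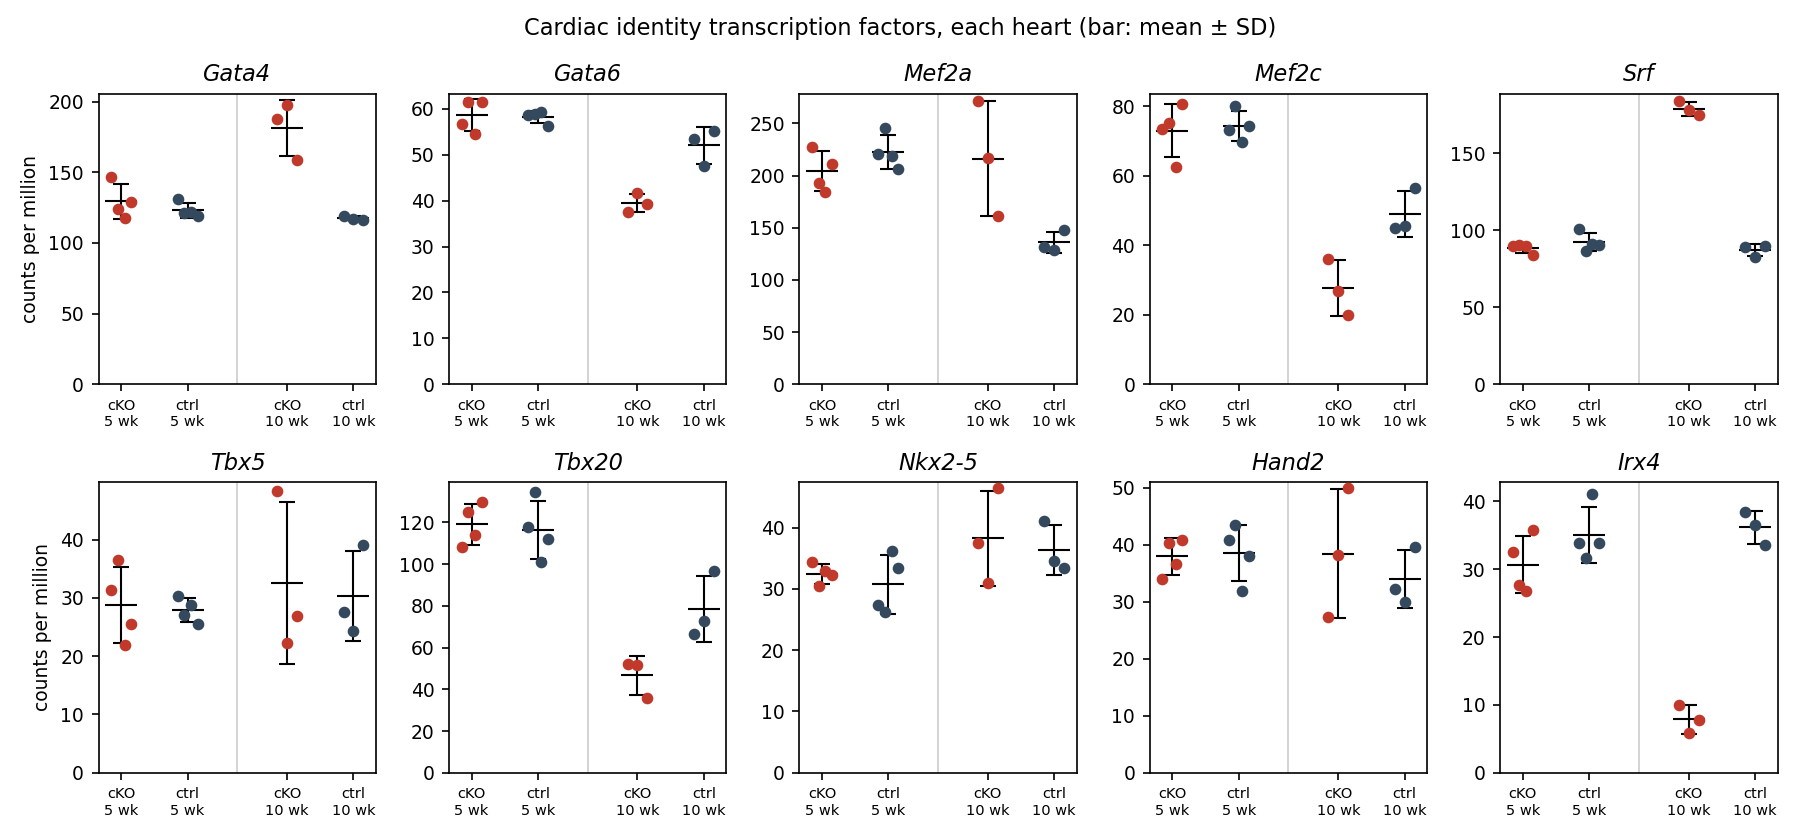
Level of each of the 10 factors in every heart, in CPM on linear axes that start at 0. Red points are cKO hearts and dark points control hearts, at 5 weeks on the left of each panel (4 against 4) and at 10 weeks on the right (3 against 3), with mean and SD. At 10 weeks the Srf points of cKO hearts lie at 175 to 184 CPM, above all control hearts, and the Irx4 points at 5.80 to 10.1 CPM, below all of them.

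Srf, the serum response factor, had the largest and most even rise. It stood at 184, 178 and 175 CPM in the 10-week cKO hearts, against 89.1, 82.8 and 89.8 CPM in the control hearts. All 3 cKO hearts lay close together and far above the controls. The rise was 2.05-fold (log2 fold change 1.04, SE 0.10, edgeR adjusted p = 2.94e-05), and it was 0.998 to 1.07 on the log2 scale with any single heart left out. The gene spans positions 46548329 to 46556175 of chromosome 17, minus strand (GENCODE M21, GRCm38). Its promoter is shown because it holds the CArG box that the SRF protein itself binds. RefSeq (GRCm38.p6) gives a window from 250 bases before to 50 after the start for 7 of the 10 factors, 9 windows in all, with 3 for Mef2c. Each window was searched on both strands for the CArG box, the MEF2 site, the GATA site AGATAA, the NKX2-5 site AAGTG and the T-box site AGGTGT. The stretch printed here is chr17:46556143-46556412 on the minus strand, the gene's own strand, read 5′ to 3′ and ending 20 bases after the start. Capitals mark every motif found:
Srf: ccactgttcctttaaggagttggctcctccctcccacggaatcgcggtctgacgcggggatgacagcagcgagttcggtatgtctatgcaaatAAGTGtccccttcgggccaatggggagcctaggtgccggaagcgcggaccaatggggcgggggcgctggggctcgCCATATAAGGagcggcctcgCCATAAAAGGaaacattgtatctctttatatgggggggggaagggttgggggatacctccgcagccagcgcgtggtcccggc
The first run of capitals is an NKX2-5 site on the strand shown, and the next 2 runs are CArG boxes, each 10 bases long, at positions -82 to -73 and -62 to -53, counting the first transcribed base as 0. The CArG box was found in 1.63% of 32851 mouse promoter windows and, among the 9 windows of these factors, in that of Srf only. The NKX2-5 site was in 46.4% of all windows and 5 of the 9, the T-box site in 13.7% and 1 of the 9 (Mef2c), and the GATA site in 11.2% and 1 of the 9 (Hand2). A match describes the letters in the window and does not show that a protein was bound there.

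Mef2a and Mef2c, both MADS-box factors that bind the MEF2 site, moved apart. Mef2a, a MEF2 factor of adult heart muscle, stood at 271, 217 and 161 CPM in 10-week cKO hearts and 132, 129 and 148 CPM in control hearts. The 3 cKO hearts were spread widely, but the lowest of them still lay above the highest control. The rise was 1.59-fold (log2 fold change 0.67, SE 0.18, edgeR adjusted p = 0.00917) and ran from 0.48 to 0.85 on the log2 scale with single hearts left out. Mef2c, which acts early in heart formation, had 36.0, 26.9 and 20.02 CPM in cKO hearts, against 44.8, 45.4 and 56.5 CPM in control hearts. Every cKO heart lay below every control. Mef2c fell to 0.566 times the control level (log2 fold change -0.82, SE 0.20, edgeR adjusted p = 0.00623). In both genes the cKO values were highest in replicate 1 and lowest in replicate 3.

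The promoter of Mef2a is shown because the MEF2 site lies across its start. Mef2a spans 67231163 to 67372858 of chromosome 7 (minus strand) and Mef2c 83504034 to 83667080 of chromosome 13 (plus strand). The stretch printed is chr7:67372839-67373108 on the minus strand, with the only motif found in capitals:
Mef2a: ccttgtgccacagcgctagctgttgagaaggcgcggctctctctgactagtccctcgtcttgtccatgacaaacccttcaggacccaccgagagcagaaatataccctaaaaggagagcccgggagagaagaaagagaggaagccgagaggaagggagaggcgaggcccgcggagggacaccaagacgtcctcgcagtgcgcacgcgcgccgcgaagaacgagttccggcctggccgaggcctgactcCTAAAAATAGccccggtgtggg
The capitals mark the MEF2 site at positions -2 to 7, counted in the same way. This motif was found in 3.19% of all promoter windows and in 1 of the 9 windows of these factors. None of the 3 Mef2c windows held a CArG box or a MEF2 site.

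The GATA factors also split. Gata4, a zinc-finger activator of sarcomere and natriuretic peptide genes, stood at 188, 198 and 159 CPM in 10-week cKO hearts and 119, 117 and 116 CPM in control hearts. The controls were almost equal, and all 3 cKO hearts lay above them. Gata4 rose 1.55-fold (log2 fold change 0.63, SE 0.12, edgeR adjusted p = 0.00125). Gata6, its close relative with partly shared targets, had 37.5, 41.6 and 39.4 CPM in cKO hearts, against 53.5, 47.6 and 55.2 CPM in control hearts. The groups did not overlap, and Gata6 fell to 0.759 times the control level (log2 fold change -0.40, SE 0.11, edgeR adjusted p = 0.0118). This was the smallest change called among the factors, and it was lost without control replicate 3 (-0.36, edgeR adjusted p = 0.0504), without the hearts with more than 50 CPM of Myl7 (-0.32, adjusted p = 0.136) and with a replicate block (-0.40, adjusted p = 0.062). Gata4 spans 63198922 to 63271692 of chromosome 14 (minus strand), and Gata6 is on chromosome 18.

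Among the T-box factors Tbx20 fell and Tbx5 did not pass the test. Tbx20, which adult cardiomyocytes need for normal contraction and conduction, had 52.2, 51.7 and 36.0 CPM in 10-week cKO hearts, against 66.7, 72.8 and 96.5 CPM in control hearts. Every cKO heart lay below every control, with the widest spread among the controls. Tbx20 fell to 0.593 times the control level (log2 fold change -0.75, SE 0.19, edgeR adjusted p = 0.0061). Tbx5, a factor of the atria and the conduction system, stood at 48.4, 22.3 and 26.9 CPM in cKO hearts and 27.6, 24.4 and 39.0 CPM in control hearts. The groups overlapped, with 1 high heart in each. The log2 fold change of Tbx5 was 0.10, with a 95% interval of -0.54 to 0.75 (edgeR adjusted p = 0.772), and it was -0.29 without cKO replicate 1. Tbx20 spans 24718138 to 24774303 of chromosome 9 (minus strand) and Tbx5 119832668 to 119885219 of chromosome 5 (plus strand).

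Irx4, an Iroquois homeobox factor whose expression in the heart is restricted to the ventricles, had the largest change of the 10. It stood at 10.1, 5.80 and 7.78 CPM in 10-week cKO hearts, against 38.5, 36.6 and 33.6 CPM in control hearts. Even the highest cKO heart had less than any control by a wide margin. Irx4 fell to 0.217 times the control level (log2 fold change -2.20, SE 0.19, edgeR adjusted p = 1.38e-05), and the fall lay between -2.41 and -2.01 on the log2 scale with any single heart left out. The lowest library still held 204 Irx4 reads. The gene spans 73260479 to 73269608 of chromosome 13 (plus strand). The promoter is shown as that of the factor with the largest change, at chr13:73260247-73260516 on the plus strand, and it has no capitals because none of the 5 motifs was found:
Irx4: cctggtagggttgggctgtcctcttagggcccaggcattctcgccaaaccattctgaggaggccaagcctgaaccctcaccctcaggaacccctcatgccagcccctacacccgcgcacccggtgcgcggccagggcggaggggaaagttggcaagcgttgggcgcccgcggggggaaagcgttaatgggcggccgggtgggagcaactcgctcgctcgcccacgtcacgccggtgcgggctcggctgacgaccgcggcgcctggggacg
That none was found says only that these letters are not in this window.

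Nkx2-5 and Hand2 did not pass the test at 10 weeks. Nkx2-5, a homeobox factor that acts with GATA and T-box proteins, stood at 37.5, 30.9 and 46.4 CPM in cKO hearts and 41.1, 34.6 and 33.4 CPM in control hearts. The groups overlapped, and the log2 fold change was 0.07, with a 95% interval of -0.29 to 0.44 (edgeR adjusted p = 0.709). Hand2, a factor of the developing right ventricle that other heart cells also express, had 27.2, 38.1 and 49.8 CPM in cKO hearts and 32.2, 29.9 and 39.6 CPM in control hearts. The cKO hearts lay on both sides of the control range. The log2 fold change of Hand2 was 0.18, with a 95% interval of -0.30 to 0.65 (edgeR adjusted p = 0.476). These intervals leave room for changes of either sign. Nkx2-5 spans 26838664 to 26845009 of chromosome 17 (minus strand) and Hand2 57320983 to 57324633 of chromosome 8 (plus strand).

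**Figure D2:**
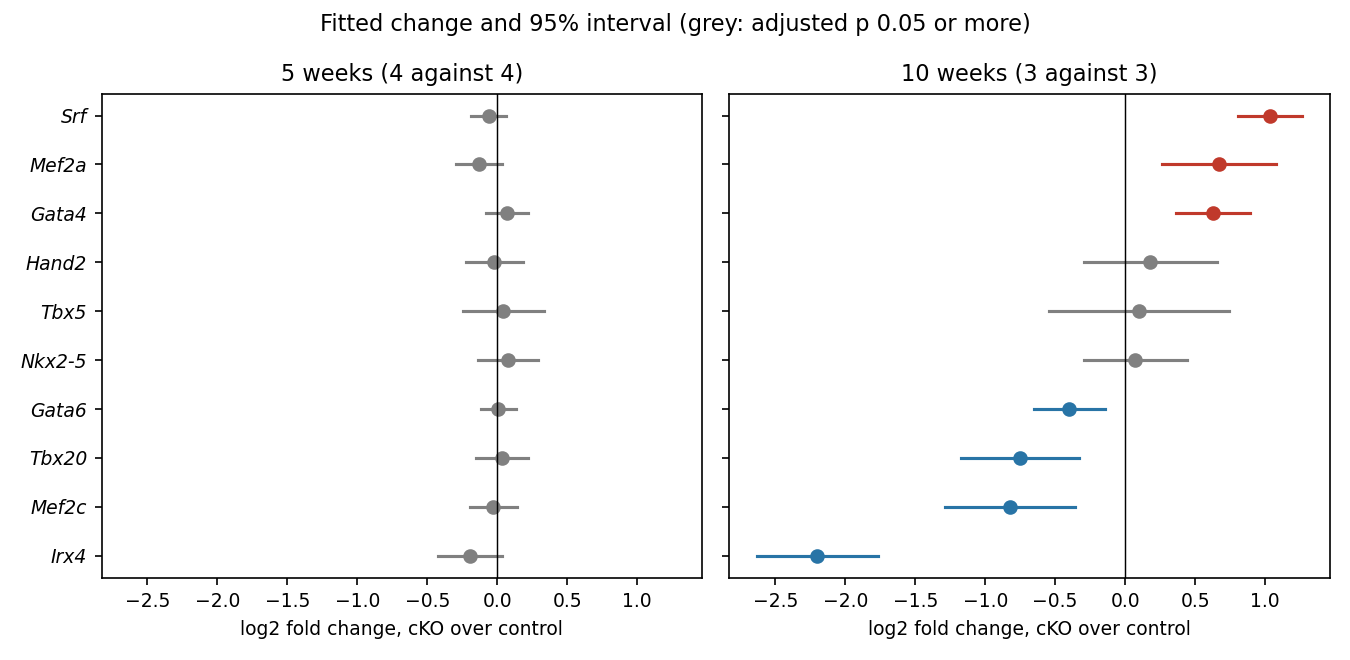
Fitted log2 fold change of each factor, cKO over control, with its 95% interval, at 5 weeks (4 against 4) and at 10 weeks (3 against 3). Colour marks an edgeR adjusted p under 0.05, red for higher and blue for lower in cKO hearts. At 5 weeks all 10 intervals include 0, and at 10 weeks those of 7 factors do not, from Srf at 1.04 down to Irx4 at -2.20.

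Before function had fallen, the same factors were close to control. The log2 fold changes at 5 weeks ran from -0.20 for Irx4 to 0.08 for Nkx2-5, with 5 positive and 5 negative, and the smallest edgeR adjusted p was 0.563. The groups overlapped for all 10 factors, where 5.65% of all tested genes had no overlap. None had an unadjusted p under 0.05 in edgeR, which 10.3% of all tested genes had, and DESeq2 called none. All 10 of the 95% intervals together ran from -0.42 to 0.33. Srf had 89.6, 90.1, 89.7 and 84.1 CPM in cKO hearts and 101, 86.7, 91.1 and 90.1 CPM in control hearts. Irx4 had 32.5, 27.7, 26.7 and 35.8 CPM in cKO hearts and 33.9, 31.6, 41.1 and 33.8 CPM in control hearts. The lowest Irx4 values were in cKO hearts and the highest in a control, and the log2 fold change of -0.20 had a 95% interval of -0.42 to 0.03. Mef2a stood at 227, 192, 185 and 211 CPM in cKO hearts, against 221, 245, 219 and 206 CPM in control hearts, and its log2 fold change was -0.13 (SE 0.08, edgeR adjusted p = 0.597). Gata4 spanned 118 to 146 CPM in cKO hearts and 119 to 131 CPM in control hearts. Gata6 spanned 54.6 to 61.6 CPM in cKO hearts and 56.3 to 59.2 CPM in control hearts. These ranges lay on top of each other. Mef2c ran from 62.6 to 80.6 CPM in cKO hearts and from 69.7 to 80.2 CPM in control hearts, and Tbx20 from 108 to 130 CPM in cKO hearts and from 101 to 134 CPM in control hearts. For the factors with fewer reads, the 5-week cKO hearts had 21.8 to 36.5 CPM of Tbx5, 30.4 to 34.4 CPM of Nkx2-5 and 34.0 to 40.9 CPM of Hand2. The control hearts had 25.5 to 30.3 CPM of Tbx5, 26.1 to 36.1 CPM of Nkx2-5 and 31.9 to 43.4 CPM of Hand2. With replicate 4 of the cKO group left out or counted as a control, no factor was called at 5 weeks either.

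Whether the knockout effect on a factor differed between 10 and 5 weeks was tested in a single fit of all 14 hearts. The times come in separate count tables, so any effect of the table cannot be told apart from that of time. The effect at 10 weeks was higher for Srf by 1.11 on the log2 scale (SE 0.10, edgeR adjusted p = 1.16e-07), for Mef2a by 0.81 (SE 0.19, adjusted p = 0.00153) and for Gata4 by 0.57 (SE 0.12, adjusted p = 0.00081). It was lower for Irx4, with a difference of -1.99 (SE 0.22, edgeR adjusted p = 1.25e-06), and for Mef2c, with -0.78 (SE 0.21, adjusted p = 0.00454). Tbx20 differed by -0.77 (SE 0.20, edgeR adjusted p = 0.00366) and Gata6 by -0.39 (SE 0.11, adjusted p = 0.00523). For Hand2, Tbx5 and Nkx2-5 the difference did not pass (0.22, 0.08 and 0.01, edgeR adjusted p = 0.437, 0.857 and 0.965). The factors called here are those called at 10 weeks, 7 of 10, where 61.2% of all 14555 tested genes were called, 29.8% higher and 31.3% lower.

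The ratio of related factors within a heart is a measure that library scaling cannot change. It is given for 3 pairs as a description, with no test, since the pairs were chosen with the changes of their members known and the 10-week ratios restate those changes. The Mef2a to Mef2c read ratio was 7.52, 8.05 and 8.04 in the 10-week cKO hearts and 2.94, 2.83 and 2.61 in the controls. All 3 cKO hearts had nearly the same ratio, although each gene alone varied between them. The mean was 7.87 ± 0.301 in cKO hearts and 2.79 ± 0.168 in control hearts (SD, n = 3 each), a log2 difference of 1.495. The Gata4 to Gata6 read ratio was 5.00, 4.75 and 4.03 in cKO hearts and 2.22, 2.45 and 2.11 in control hearts, a log2 difference of 1.02 without overlap. The Tbx5 to Tbx20 read ratio was 0.927, 0.432 and 0.747 in cKO hearts and 0.414, 0.335 and 0.404 in control hearts. It also did not overlap, but 1 cKO heart lay just above the controls, and the log2 difference of 0.81 ranged from 0.57 to 1.12 with single hearts left out. At 5 weeks the same ratios overlapped, with means of 2.81 ± 0.257 in cKO hearts and 3.00 ± 0.156 in control hearts (SD, n = 4 each) for Mef2a to Mef2c. They were 2.21 ± 0.249 in cKO hearts and 2.11 ± 0.0788 in control hearts for Gata4 to Gata6, and 0.243 ± 0.0559 in cKO hearts and 0.243 ± 0.0365 in control hearts for Tbx5 to Tbx20.

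**Figure D3:**
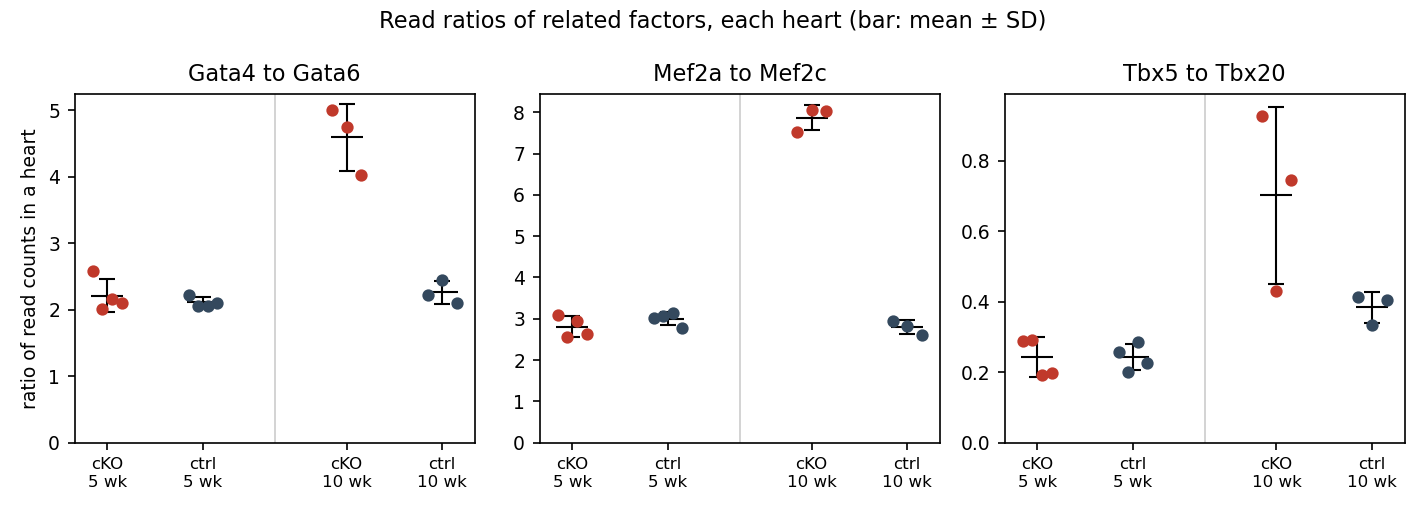
Ratio of the read counts of related factors within each heart, with mean and SD, on linear axes that start at 0. Red points are cKO hearts and dark points control hearts, at 5 weeks on the left of each panel and at 10 weeks on the right. At 10 weeks the Mef2a to Mef2c ratio lies between 7.52 and 8.05 in cKO hearts, above the control hearts at 2.61 to 2.94, while the 5-week groups overlap.

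Set against exon length, the 10-week groups had the same factors at ranks 1 to 4, namely Srf, Gata4, Nkx2-5 and Hand2, and at rank 10, Mef2c, and the order differed between these. In 10-week cKO hearts Srf led with a level of 61.8 ± 1.54 CPM per kilobase of exon, followed by Gata4 with 46.4 ± 5.15 and Nkx2-5 with 22.3 ± 4.52 (SD, n = 3). Srf lay above Gata4, and Gata4 above Nkx2-5, in every cKO heart. In the 10-week controls Srf and Gata4 overlapped, at levels of 30.2 ± 1.34 and 30.05 ± 0.362 CPM per kilobase (SD, n = 3), with Nkx2-5 next at 21.1 ± 2.40. Irx4 stood at rank 9 of 10 in the cKO hearts with a level of 3.02 ± 0.816 CPM per kilobase, overlapping Tbx20 above it and Mef2c below it. In the controls Irx4 stood at rank 5 with 13.9 ± 0.934, overlapping Hand2 above it and above Mef2a in every heart. Hand2, Mef2a, Tbx5, Gata6 and Tbx20 had levels of 16.3, 14.7, 6.96, 6.07 and 3.89 CPM per kilobase in the cKO hearts, and 14.4, 9.26, 6.48, 8.00 and 6.56 in the controls. Of the neighbours among these, Mef2a lay above Tbx5 and Gata6 above Tbx20 in every cKO heart, and the others overlapped. Mef2c was lowest in both groups, at 1.76 ± 0.511 CPM per kilobase in cKO hearts and 3.11 ± 0.420 in control hearts. These ranks depend on the merged length of all annotated exons, 15715 bases for Mef2c and 1719 for Nkx2-5. In CPM alone Mef2c stood above Nkx2-5 in the 10-week controls (48.9 against 36.3) but not in the cKO hearts (27.7 against 38.3). At 5 weeks the levels of Gata4 and Srf were the highest, at 33.1 ± 3.14 and 30.5 ± 0.982 CPM per kilobase in cKO hearts and at 31.5 ± 1.35 and 31.8 ± 2.06 in control hearts (SD, n = 4). They overlapped in both groups, and the other 8 factors had the same order in cKO and control hearts.

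**Figure D4:**
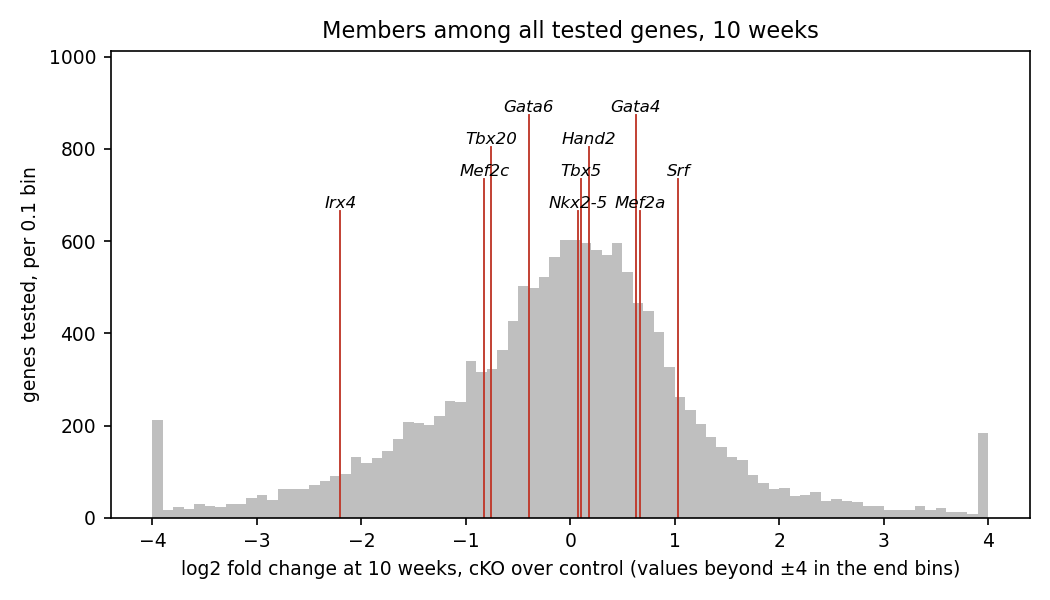
Histogram of the log2 fold change at 10 weeks, cKO over control, of all 14942 tested genes in grey, with values beyond 4 in either direction gathered in the end bins, and the 10 factors as red lines whose heights carry no value. Irx4 lies in the lower tail at -2.20, Srf at 1.04, and the other 8 factors between -0.82 and 0.67, in the bulk of the distribution.

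Some hearts carried more atrial transcript than others. Myl7, a myosin light chain of atrial muscle, reached 175 CPM in replicate 2 of the 5-week cKO group, 78.8 CPM in replicate 1 of the 10-week cKO group and 111 CPM in replicate 3 of the 10-week controls. In the other 11 hearts it was at most 21.96 CPM, and 1 control heart at 5 weeks had no Myl7 read. Each of the 3 hearts also had the highest Tbx5 of its group, at 36.5, 48.4 and 39.0 CPM. Bmp10, another atrial transcript, stood at 165 CPM in 5-week cKO replicate 2 and 104 CPM in 10-week control replicate 3. In the other 12 hearts, 10-week cKO replicate 1 among them, Bmp10 was at 0.754 CPM or less. With the 3 hearts left out, which leaves 2 against 2 hearts at 10 weeks, the log2 fold change of Tbx5 was -0.08 (edgeR adjusted p = 0.729). Hand2 then passed the test at 0.50 (edgeR adjusted p = 0.048) and Gata6 no longer did (-0.32, adjusted p = 0.136), so 4 factors were higher and 3 lower. The changes of Srf (1.04), Irx4 (-2.47), Gata4 (0.59) and Tbx20 (-0.67) stayed past the test, as did those of Mef2a and Mef2c. Among the hearts kept at 10 weeks, Myl7 was still lower in cKO hearts, at 0.0853 and 0.240 CPM, than in control hearts, at 15.9 and 21.2 CPM. Leaving out the 3 hearts therefore did not make the groups alike in Myl7. The part of atrial tissue in these and the other results was not tested.

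**Figure D5:**
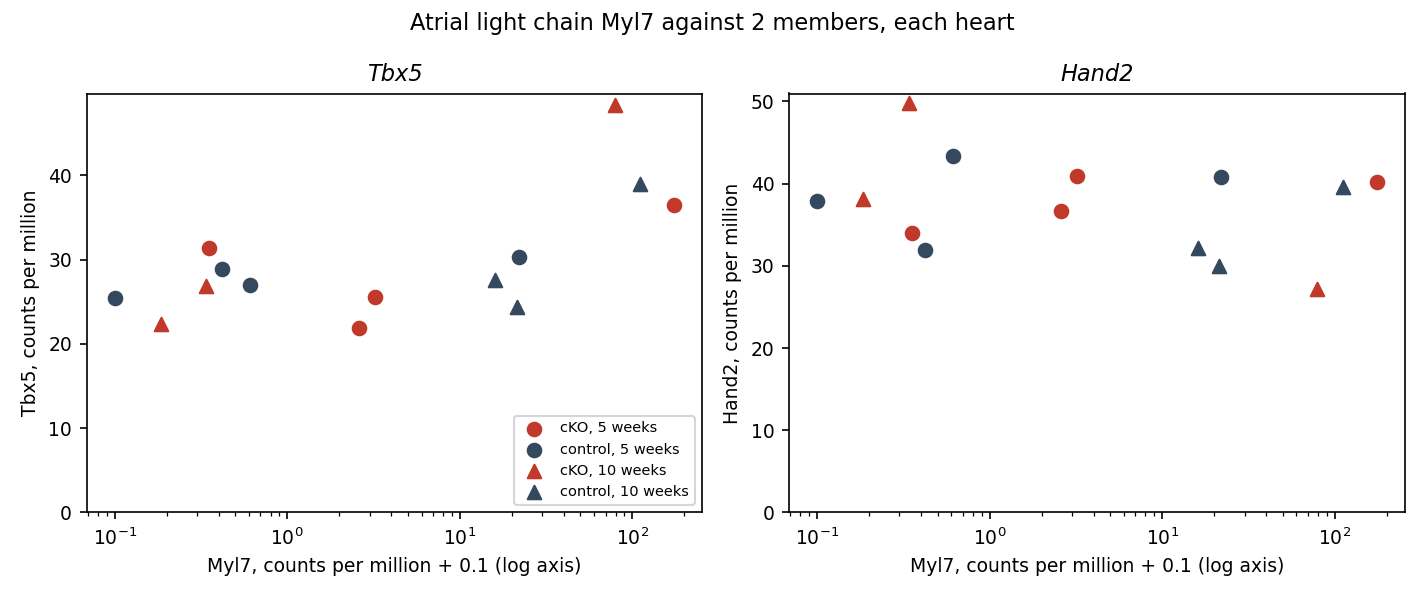
Level of Tbx5 and of Hand2 against that of the atrial light chain Myl7 in each of the 14 hearts, in CPM, with 0.1 added to Myl7 and its axis on a log scale. Red points are cKO hearts and dark points control hearts, as circles at 5 weeks and triangles at 10 weeks. The 3 hearts with 78.8 CPM of Myl7 or more have 36.5 to 48.4 CPM of Tbx5, each the highest of its group, which for Hand2 holds in 1 of the 3.

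Relatives of the factors that play smaller parts in heart muscle were also counted. Of 17 listed genes of the same families, 12 had enough reads at 10 weeks, of which 3 rose and 4 fell, where 31.8% of all tested genes rose and 33.2% fell (median log2 fold change -0.18, against -0.02 over all tested genes). With single hearts left out, 2 to 4 rose and 3 or 4 fell. Mef2b, a MEF2 gene with few reads in control hearts, rose to 5.88 ± 1.42 CPM in cKO hearts, against 0.368 ± 0.105 CPM in control hearts (SD, n = 3 each; log2 fold change 3.99, edgeR adjusted p = 5.37e-06). Tbx3, a T-box repressor of the conduction system, fell to 5.65 ± 2.05 CPM in cKO hearts, against 16.02 ± 2.70 CPM in control hearts (SD, n = 3 each; log2 fold change -1.50, edgeR adjusted p = 0.000574). Gata2 fell by 0.56 on the log2 scale (edgeR adjusted p = 0.00248). Gata3, with few reads throughout, fell to 0.0992 ± 0.0885 CPM in cKO hearts, against 1.03 ± 0.197 CPM in control hearts (SD, n = 3 each; edgeR adjusted p = 0.000356). None of the 9 tested at 5 weeks was called.

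Partners and repressors that set the activity of these factors changed in both directions at 10 weeks. Of 20 tested, 5 rose and 11 fell, where 31.8% of all tested genes rose and 33.2% fell, and the median log2 fold change was -0.37, against -0.02 over all tested genes. Whether these counts differ from those of all genes was not tested, here or for the lists that follow. Hopx, a homeodomain protein that holds SRF back without binding DNA, fell to 34.6 ± 3.28 CPM in cKO hearts, against 232 ± 37.7 CPM in control hearts (SD, n = 3 each; log2 fold change -2.75, edgeR adjusted p = 1.21e-06). Fhl2, a LIM protein that binds SRF, fell to 431 ± 71.1 CPM in cKO hearts, against 1462 ± 113 CPM in control hearts (log2 fold change -1.76, edgeR adjusted p = 1.28e-05). Jarid2, a chromatin repressor in the developing heart, fell by 1.42 on the log2 scale (edgeR adjusted p = 7.45e-05). Tead1, which binds MCAT elements in muscle promoters, rose 2.20-fold (edgeR adjusted p = 0.000149). At 5 weeks none of the 20 was called, and the smallest adjusted p in edgeR was that of Hopx, with 200 ± 17.6 CPM in cKO hearts and 233 ± 26.0 CPM in control hearts (log2 fold change -0.22, adjusted p = 0.403).

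Genes known as targets of several of these factors moved in both directions at 10 weeks. Of 24 tested, 8 rose and 9 fell, shares near those of all tested genes, with a median log2 fold change of 0.13 that was -0.04 under upper quartile scaling and -0.03 without cKO replicate 1. Xirp2, a MEF2 target at the cell junctions, rose to 2238 ± 367 CPM in cKO hearts, against 368 ± 23.3 CPM in control hearts (SD, n = 3 each; log2 fold change 2.604, edgeR adjusted p = 1.81e-06). Nppb, which encodes B-type natriuretic peptide and has GATA sites, rose to 560 ± 90.2 CPM in cKO hearts, against 146 ± 24.5 CPM in control hearts (log2 fold change 1.94, edgeR adjusted p = 1.52e-05). Myoglobin, Mb, fell to 1965 ± 332 CPM in cKO hearts, against 12059 ± 1886 CPM in control hearts (log2 fold change -2.62, edgeR adjusted p = 5.18e-06). Myl3, a ventricular myosin light chain, fell by 2.55 on the log2 scale (edgeR adjusted p = 5.53e-06). None of the 24 was called at 5 weeks, but 2 rose without cKO replicate 1, 4 with no filter on low counts and 1 in DESeq2. At 5 weeks Xirp2 had 560 ± 88.3 CPM in cKO hearts and 427 ± 31.8 CPM in control hearts (SD, n = 4 each; log2 fold change 0.39, edgeR adjusted p = 0.145).

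Genes that SRF and the myocardin-related factors are known to control also moved in both directions. Of 19 tested at 10 weeks, 12 rose and 6 fell, where 31.8% of all tested genes rose and 33.2% fell. The median log2 fold change was 1.03, against -0.02 over all tested genes, and under other scalings 10 to 12 rose and 6 fell. Acta1, skeletal α-actin, rose to 4873 ± 821 CPM in cKO hearts, against 243 ± 99.4 CPM in control hearts (SD, n = 3 each; log2 fold change 4.32, edgeR adjusted p = 4.92e-06). Fhl1, a LIM protein of the sarcomere, rose to 747 ± 45.4 CPM in cKO hearts, against 119 ± 2.79 CPM in control hearts (log2 fold change 2.65, edgeR adjusted p = 4.79e-07). Ctgf, a secreted matrix protein, rose by 3.48 on the log2 scale (edgeR adjusted p = 7.82e-07), and Zyx, zyxin of the focal adhesions, by 2.11 (adjusted p = 1.63e-06). The 6 that fell were Actg2, Tagln, Cnn1, Tpm4, Egr1 and Filip1l, named after their values were seen. Actg2, Tagln and Cnn1 encode proteins of the smooth muscle contractile apparatus, and 7 of 8 smooth muscle and pericyte markers, Tagln and Cnn1 among them, fell at 10 weeks. Acta2, the other of those 8, and the myosin light chain gene Myl9 are also among the 19 and went the other way. Acta2 had 993, 1360 and 1881 CPM in cKO hearts, against 208, 227 and 173 CPM in control hearts. Myl9 had 242, 388 and 639 CPM in cKO hearts, against 69.6, 70.7 and 53.2 CPM in control hearts. The part of smooth muscle cells in these changes was not tested. At 5 weeks none of the 19 was called (median 0.18, against 0.00 over all tested genes), but 1 rose with cKO replicate 4 left out or counted as a control, 1 with the replicate block, 1 in DESeq2 and 4 with no filter on low counts.

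Markers of the heart's cell types moved with the genotype at 10 weeks. Summed over 11 ventricular cardiomyocyte markers, cKO hearts had 56855 to 65887 CPM and control hearts 76280 to 87856 CPM. Of these, 6 markers were called lower and Actn2 higher. Myh6, the most abundant of the 11 and named after its values were seen, was not called and went against the sum. It stood at 34779, 29537 and 30592 CPM in cKO hearts, against 27960, 26553 and 28839 CPM in control hearts. The summed level of 9 fibroblast markers was 1965 to 2192 CPM in cKO hearts and 3116 to 3874 CPM in control hearts. Of these markers 2 were higher and 4 lower. Gsn, 1 of the 4 that were lower, made up the largest part of this sum. It stood at 975, 859 and 965 CPM in cKO hearts, against 2003, 2437 and 2425 CPM in control hearts. For 8 endothelial and endocardial markers the summed level was 381 to 466 CPM in cKO hearts and 888 to 1080 CPM in control hearts, with 6 lower. For 8 smooth muscle and pericyte markers it was 1642 to 2342 CPM in cKO hearts and 1492 to 1579 CPM in control hearts, where Acta2 alone rose. For 9 macrophage markers it was 155 to 210 CPM in cKO hearts and 262 to 276 CPM in control hearts, with 7 lower, or 4 without cKO replicate 1, cKO replicate 2 or control replicate 2. For 7 atrial markers, which include Nppa, it was 1765 to 2984 CPM in cKO hearts and 163 to 1032 CPM in control hearts, with 1 higher and 2 lower (2 higher and 1 lower without control replicate 3, and 1 lower without cKO replicate 2). Nppa, the 1 called higher, made up most of this sum in cKO hearts, at 2623, 1734 and 2376 CPM, against 93.8, 139 and 566 CPM in control hearts. Stard10 and Bmp10 were called lower, and the median log2 fold change of the 7 was -0.82. Bmp10 had 0.421, 0.483 and 0.754 CPM in cKO hearts, against 0, 0.0943 and 104 CPM in control hearts. Only control replicate 3 lay above the cKO hearts in Bmp10, and the other controls lay below them. Each of these 6 sums had an exact permutation p of 0.1, the smallest possible for 3 against 3 hearts. For 5 epicardial markers it was 6.75 to 10.8 CPM in cKO hearts and 8.08 to 13.5 CPM in control hearts (exact permutation p = 0.3, 3 against 3 hearts), with 2 lower, or 1 without cKO replicate 2, control replicate 2 or control replicate 3. At 5 weeks the cardiomyocyte sum was 66079 to 71037 CPM in cKO hearts and 73073 to 82037 CPM in control hearts, without overlap (exact permutation p = 0.0286, the smallest possible for 4 against 4 hearts), with no single marker called, and the other sums overlapped. No marker was at 0 in all hearts of a table. The part of cell composition in the changes of the factors was not tested.

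The library kit does not mark the strand, so reads in a stretch shared with a gene on the other strand cannot be assigned to 1 of them. Mef2a shares 302 exon bases with Lysmd4, which fell to 8.61, 9.86 and 7.85 CPM in 10-week cKO hearts, against 17.4, 17.4 and 19.2 CPM in control hearts (log2 fold change -1.03, SE 0.13, edgeR adjusted p = 0.000143). Lysmd4 went the opposite way to Mef2a and had far fewer reads. Gata6 shares 93 exon bases with 1010001N08Rik, a noncoding transcript at 3.64, 2.39 and 2.84 CPM in cKO hearts and 4.75, 3.87 and 6.33 CPM in control hearts (log2 fold change -0.75, SE 0.24, edgeR adjusted p = 0.0202). It fell with Gata6, at a level well under that of Gata6 in every heart. Its call was lost without cKO replicate 2 (-0.61, edgeR adjusted p = 0.0772) or control replicate 3 (-0.55, adjusted p = 0.0904). Hand2 shares 461 exon bases with Hand2os1, which was not analysed here, so the value of Hand2 is uncertain to that extent. No exon of another annotated gene overlaps those of the other 7 factors.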

How the data were processed

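The authors deposited whole-number read counts per gene symbol, 1 table per time, with no normalization that the values show. Per the labels' protocols, poly-A RNA was taken from 100 ng of total RNA, the library kit was TruSeq V2, an unstranded kit, and reads were single-end and 100 nt long. Trimmomatic 0.36, STAR 2.6.0c and the build GRCm38 are named in the submitters' processing notes. Neither counting tool nor annotation is given in the sources used here, and how such a tool treats reads shared by overlapping or similar genes can change the counts.

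Samples were grouped by their titles. The members and gene lists were chosen with earlier results of these data known. The main test was the quasi-likelihood F test in edgeR 4.0.16 (R 4.3.3) on the deposited counts, with TMM scaling, filterByExpr (minimum count 10, total 15) and Benjamini-Hochberg adjustment over all tested genes. Each time was fitted alone, and the difference between times in 1 fit of all 14 libraries. An adjusted p with no tool beside it comes from this test. CPM values were computed from the deposited counts with TMM-scaled library sizes, and the level per kilobase divides CPM by the length of all annotated exons merged (GENCODE M21, in which 28535 symbols, 53.1%, were found). Standard errors were obtained as the log2 fold change over the square root of F. Two-sided exact permutation tests were used for single values, and no gene set was tested. The fits were also tested on simulated counts.

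Named genes are all 10 members, Fam210a, up to 4 genes with the smallest p in each other list, and genes that overlap a member. DESeq2 1.42.0, other scalings, other filters, leaving out single hearts, a replicate block and other readings of 5-week cKO replicate 4 were alternatives. Leaving out the 3 hearts with more than 50 CPM of Myl7 was added after seeing the data. Counts of hearts in 1 group differed by a chi-square of 3.9 or more per gene, more than counting noise alone would give. Replicate 3 of the 10-week cKO group stood furthest apart, at 106.6 from replicate 1 and 100.7 from replicate 2. Those 2 differed from each other by 21.51, and the 10-week controls by 14.66 to 35.98. The cause was not tested. Depth and the number of hearts set the precision. The lowest count of a member was 204 reads.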

Additional observations from a re-analysis of the deposited data

Results flagged for a closer look

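For 7 of the 10 factors the knockout effect differed between the times. The difference on the log2 scale, the effect at 10 weeks minus that at 5 weeks, was 1.11 for Srf, 0.81 for Mef2a, 0.57 for Gata4, -0.39 for Gata6, -0.77 for Tbx20, -0.78 for Mef2c and -1.99 for Irx4. Among all tested genes 61.2% differed in the same test of edgeR, and time cannot be told apart from table. Among 20 groups of 4 hearts, 1 for each factor, genotype and 5-week group, 2 held a value far from the other 3. Srf stood at 84.1 CPM in cKO replicate 4, below 89.6 to 90.1 CPM in the other cKO hearts, and Gata6 at 56.3 CPM in control replicate 4, below 58.8 to 59.2 CPM in the other controls. Chance alone gives about 1 such group in 20.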

How the results depend on the processing

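The 10-week calls of Srf, Mef2a, Gata4, Irx4, Mef2c and Tbx20 held under every alternative run, and no factor was called at 5 weeks under any. Gata6 lost its 10-week call under the replicate block (-0.40, edgeR adjusted p = 0.062), without control replicate 3 (-0.36, adjusted p = 0.0504) and without the hearts with more than 50 CPM of Myl7 (-0.32, adjusted p = 0.136), and its difference between times did so with no filter on low counts (-0.34, adjusted p = 0.0621) and without those hearts (-0.26, adjusted p = 0.0978). Without those hearts Hand2 passed at 10 weeks (0.50, edgeR adjusted p = 0.048) and in the difference (0.60, adjusted p = 0.023). The cause was not tested.

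Some factors that were not called altered sign, while Gata4, Nkx2-5, Mef2a, Srf and Irx4 kept theirs at 5 weeks with each of the 8 hearts left out and under the 11 other alternatives. With single hearts left out, the 5-week log2 fold change ran from -0.094 to 0.16 for Tbx5, -0.10 to 0.041 for Hand2, -0.017 to 0.039 for Gata6, -0.079 to 0.039 for Mef2c and -0.029 to 0.11 for Tbx20. At 10 weeks it ran from -0.29 to 0.33 for Tbx5, -0.076 to 0.22 for Nkx2-5 and -0.041 to 0.38 for Hand2, and the difference between times from -0.15 to 0.18 for Nkx2-5, -0.29 to 0.32 for Tbx5 and -0.017 to 0.45 for Hand2. With 5-week cKO replicate 4 counted as a control, Gata6 was at -0.034 and Tbx20 at -0.042 at 5 weeks, and the difference for Tbx5 was -0.0020. Without the hearts with more than 50 CPM of Myl7, Gata6 was at -0.016 and Tbx5 at -0.094 at 5 weeks, Tbx5 was at -0.081 at 10 weeks, and the difference for Nkx2-5 was -0.032. With a minimum count of 50 it was -0.034.

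Scaling moved all genes together. Upper quartile factors moved the 10-week median of all genes to -0.19 and the median of the difference to -0.21. Of the genes called, 39.8% were then higher at 10 weeks and 37.4% in the difference, against 49.0% and 48.8% with TMM. Nkx2-5 was then at -0.099 and Tbx5 at -0.071 at 10 weeks, and at -0.18 and -0.12 in the difference. Relative to the median they stood at 0.089 and 0.12 at 10 weeks, and 3 factors were higher and 4 lower as before. With total counts Nkx2-5 was at -0.0029 at 10 weeks, and the differences were -0.080 for Nkx2-5 and -0.013 for Tbx5.

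The number of genes called at 5 weeks, 83, was 388 with no filter, 176 with DESeq2, 162 with cKO replicate 4 as a control and 46 without the heart with more than 50 CPM of Myl7, which is cKO replicate 2. Leaving out single hearts gave 45 to 181, with 181 when cKO replicate 4 was the heart left out, and 54, 46 and 45 for control replicates 2, 3 and 4. Same-numbered hearts did not deviate together (r from -0.089 to -0.0365 at 5 weeks and -0.412 to -0.058 at 10 weeks). No pairing by number was seen, but so few hearts cannot show that the samples were unpaired. With the replicate block 78 genes were called at 5 weeks, 8374 at 10 weeks and 8012 in the difference, where Nkx2-5 was at -0.012. With 3 hearts a group at 10 weeks, changes of Nkx2-5, Tbx5 and Hand2 within their intervals were not detectable.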

Other observations

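The partners of SRF did not move as a block at 10 weeks; the genes in this paragraph were chosen after their values were seen. Myocd, which encodes the cardiac and smooth muscle coactivator myocardin, had 69.2, 61.1 and 30.4 CPM in cKO hearts, against 18.4, 20.2 and 29.2 CPM in control hearts. Its lowest cKO heart lay just above its highest control, and it rose 2.37-fold (log2 fold change 1.24, SE 0.29, edgeR adjusted p = 0.00476). Mkl1, a myocardin-related factor that actin holds in the cytoplasm, had 5.96, 8.19 and 7.30 CPM in cKO hearts, against 11.9, 13.5 and 14.3 CPM in control hearts, and fell by 0.89 on the log2 scale (SE 0.16, edgeR adjusted p = 0.000947). Mkl2, its relative, had 34.2, 27.0 and 18.7 CPM in cKO hearts and 31.5, 31.2 and 36.7 CPM in control hearts, and did not pass (log2 fold change -0.31, edgeR adjusted p = 0.194). At 5 weeks none of the 3 was called, with log2 fold changes of -0.17, -0.18 and 0.12.

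The third MEF2 gene of heart muscle followed Mef2a and not Mef2c in sign. Mef2d had 372, 342 and 228 CPM in 10-week cKO hearts, against 201, 192 and 208 CPM in control hearts, a rise of 0.65 on the log2 scale without overlap (SE 0.18, edgeR adjusted p = 0.00939). Gja1, the gene of the gap junction protein connexin 43, had 103, 96.5 and 81.2 CPM in 10-week cKO hearts, against 283, 307 and 408 CPM in control hearts. It fell by 1.83 on the log2 scale (SE 0.17, edgeR adjusted p = 1.84e-05), while its 5-week log2 fold change of 0.15 did not pass (adjusted p = 0.451).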
